A study of Mus musculus with 6 samples.

Results

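The transcripts that drive cells through G2 and mitosis were followed as a list of 51 genes in sorted mouse erythroblasts, the nucleated precursors of red cells. A gene counted as measured when at least 1 probe set of the array was annotated to its symbol alone, which held for 49 of the 51 genes. Ccnb1 and Espl1 had no such probe set and were not analysed here. The 49 measured genes are covered by 91 probe sets out of 22626 tested, and the whole array measures 12393 genes.

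The series compares 3 wild type samples with 3 samples from mice that carry a transgene for the RPS19 protein with the change R62W, called mutant RPS19 in the labels. RPS19 belongs to the small ribosomal subunit and is often mutated in Diamond-Blackfan anaemia. All 6 samples are of the FVB/N strain and were sorted from bone marrow as CD71 positive cells, CD71 being the transferrin receptor that dividing erythroblasts carry at high density. No other allele or treatment is named for either group. The sources used here do not name the promoter of the transgene, the age of the mice or whether each sample came from its own animal. A p-value therefore reflects the spread among these 6 arrays, part of which may be technical. RNA was measured on 1 Affymetrix array per sample, and all values below are deposited log2 RMA values of single probe sets. A value of 1 on this scale is a doubling, and levels of different genes are not compared, since probe sets differ in brightness.

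Erythroblasts divide several times as they mature, and mitosis runs on proteins that are made afresh in each cycle. Cyclin A2 and the B cyclins switch on the kinase Cdk1, condensin packs the chromosomes, kinetochores attach them to the spindle, a checkpoint holds back their separation until all are attached, and the anaphase-promoting complex then destroys the cyclins. Transcripts of these proteins accumulate in G2 and mitosis, so in a mixed sample their level follows the number of cells in these phases as well as the amount per cell. In these bulk samples fewer cells in G2 and mitosis and less of the RNA per cell cannot be told apart.

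Several facts of the whole series touch the values below. Mutant arrays varied more among themselves than wild type arrays, with median SDs over all genes of 0.179 and 0.088. Rps19 itself read 12.06 to 12.13 on the wild type and 12.06 to 12.10 on the mutant arrays, but it does not check the labels, because nothing here says whether its probe set also reads the transgene. The 6 fixed erythroid genes Gata1, Klf1, Epor, Tfrc, Slc4a1 and Alas2 read between 7.90 and 12.15 on every array, against array medians of 5.35 to 5.41. The neutrophil granule genes Mpo and Elane also read high in the sorted cells, at 11.98 to 13.17 on the wild type arrays. The 15 probe sets of bacterial transcripts spiked into the RNA averaged 7.37 to 7.39 on the wild type and 9.68 to 11.26 on the mutant arrays. The 3' minus 5' signal of the actin control ran from 1.26 to 1.37 on wild type and from 1.58 to 1.88 on mutant arrays, highest on mutant replicate 1. That of the Gapdh control ran from -0.087 to -0.049 on wild type arrays. On mutant replicates 1, 2 and 3 it was 0.25, 0.26 and 0.31, lowest of these on mutant replicate 1. The part of these differences in the results was not tested.

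No measured mitosis or G2/M gene passed the test between mutant and wild type erythroblasts. Of the 49 measured genes, 0 were called by limma at an adjusted p under 0.05, where 0.331% of all 12393 genes were called, and 4 had an unadjusted p under 0.05, where 17.4% of all genes did. The mutant mean was lower for 23 genes and higher for 26. The median difference was 0.0067 on the log2 scale, against -0.0044 over all genes, and 39 of the 49 genes differed by less than 0.25. The lowest adjusted p of any of them was 0.246. The 95% confidence interval of a member's difference reached a median of 0.33 to either side, so differences of up to about that size could not be told from 0 for most of the genes. Over all probe sets the fit called 0 of the 91, against 2.33% of the 22626.

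What set the mutant samples apart was the spread among them. For 47 of the 49 genes the mutant SD exceeded the wild type SD, which held for 77.7% of all genes. The median SD of these 49 genes was 0.054 among wild type and 0.25 among mutant arrays. In 48 of the 49 genes the distance from the lowest to the highest mutant array was larger than the difference between the group means. That share was not computed over all genes, so it shows nothing particular to these genes. For most of the genes mutant replicate 1 was low, and mutant replicates 2 and 3 were high more often than low, as the map of all 49 genes by array shows.

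**Figure D1:**
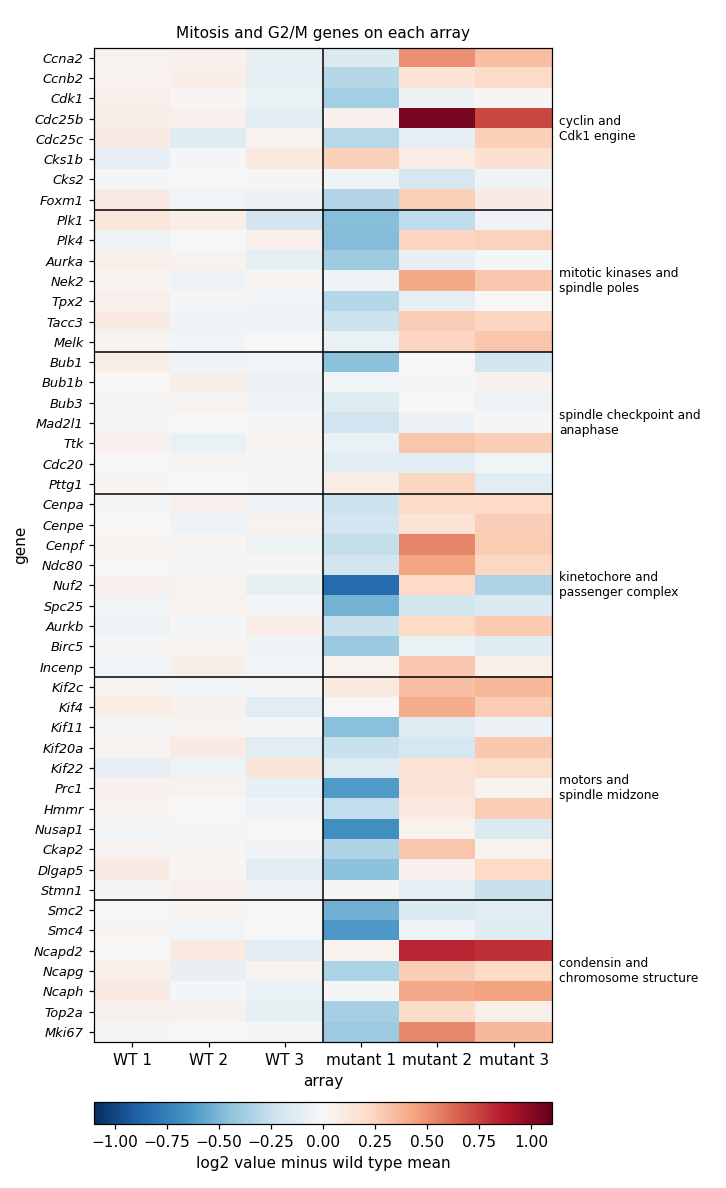
Log2 RMA value minus the wild type mean (colour, red higher and blue lower) of the 49 measured genes (rows, grouped by role) on the 6 arrays (columns). Mutant replicate 1 is blue in most rows and was the lowest of the 6 arrays for 36 genes, whereas Cdc25b and Ncapd2 are dark red on mutant replicates 2 and 3.

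On mutant replicate 1 the 49 genes had a median deviation of -0.25 from the wild type mean, against -0.03 over all genes. The array read below every wild type array for 38 of the 49 genes, against 41.3% of all genes. It read above every wild type array for 3, Cks1b, Pttg1 and Kif2c, against 34.8%. These counts rest on the brightest probe sets, and each of the 3 had a dimmer one on which mutant replicate 1 lay below every wild type array. Mutant replicate 1 was the lowest of all 6 arrays for 36 of the 49, or 73.5%, against 28.3% of all genes. On mutant replicate 2 the median deviation was 0.15 and 29 of the 49 genes read above every wild type array, against 35.5% of all genes, and 12 below, against 38.4%. Mutant replicate 3 gave a median of 0.17 and again 29 of 49 above every wild type array, against 38.9%, with 13 below, against 33.3%. For 18 genes mutant replicate 1 lay below and mutant replicates 2 and 3 above all wild type arrays, a pattern seen in 6.29% of all genes. Among the 18, each read on its brightest probe set, were Ccna2, Ccnb2, Foxm1, Plk4, Aurkb, Cenpa, Ndc80, Top2a and Mki67. These counts describe the 6 arrays. No test was made of them, and genes that vary together are not independent points.

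**Figure D2:**
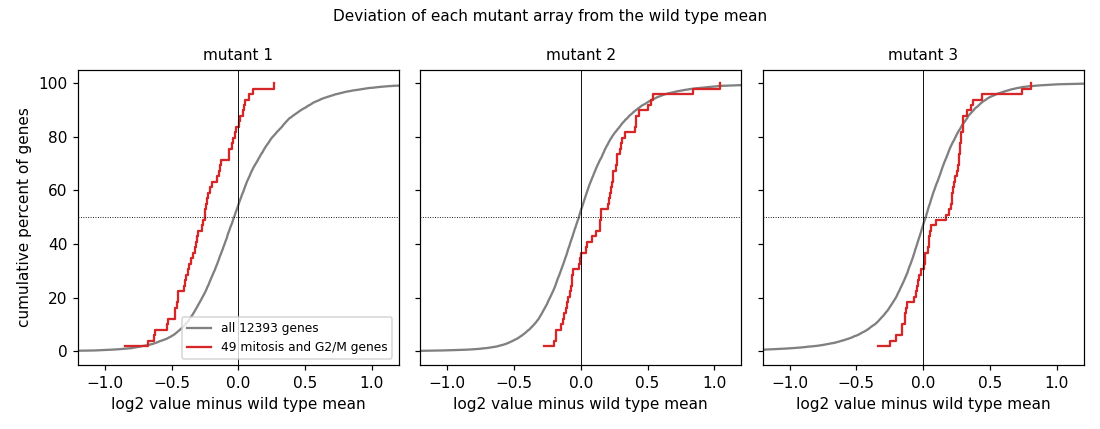
Cumulative percent of genes (vertical axis) by log2 value minus the wild type mean (horizontal axis) on each mutant array, for all 12393 genes in grey and the 49 mitosis and G2/M genes in red; the axis ends at -1.2 and 1.2, and some of all genes lie beyond. The red curve lies left of the grey curve on mutant replicate 1 (median -0.25 against -0.03) and right of it on mutant replicates 2 (0.15 against -0.01) and 3 (0.17 against 0.02).

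Other gene lists also varied between the same arrays. Of all genes, 41.3% read below and 34.8% above every wild type array on mutant replicate 1, and 28.3% were lowest there. The shares below and above were 38.4% and 35.5% on mutant replicate 2, and 33.3% and 38.9% on mutant replicate 3. The 6 erythroid genes named above had a summed linear level of 12469 to 13383 in wild type, 8526 on mutant replicate 1, 13481 on mutant replicate 2 and 13566 on mutant replicate 3, and 5 of the 6 were lowest on mutant replicate 1. All 10 neutrophil precursor genes of the fixed list read above every wild type array on mutant replicate 1 and below every one on mutant replicate 3, with sums of 31448 to 33735 in wild type and 50398, 23014 and 16774 on mutant replicates 1, 2 and 3. Of 10 B cell precursor genes 9 read above every wild type array on mutant replicates 2 and 3, with sums of 736 to 792 in wild type and 727, 2623 and 1356 on the mutant arrays. Of 9 late erythroid genes 8 were above every wild type array on mutant replicates 2 and 3 while on mutant replicate 1 4 were below and 3 above (sums 9445 to 10120 in wild type, then 8581, 14231 and 12879). Of 7 early erythroid genes 5 were below every wild type array on mutant replicate 2 and 6 on mutant replicate 3, and on mutant replicate 1 3 were below and 3 above (sums 8589 to 8844 in wild type, then 7268, 7772 and 7453). The 8 monocyte and macrophage genes summed to 2119 to 2158 in wild type and 2254, 2052 and 1118 on the mutant arrays. On mutant replicate 1, however, 6 of these 8 read below every wild type array and 2 above. Of the 6 megakaryocyte genes Vwf was called higher, where 0.178% of all genes were. The 6 genes summed to 443 to 458 in wild type and 864, 529 and 549 on the mutant arrays. On mutant replicate 1, 4 of them read above every wild type array and 2 below. The 6 T and NK cell genes summed to 381 to 425 in wild type and 732, 386 and 305 on the mutant arrays. On mutant replicate 1, 3 of them read above every wild type array and 3 below. The part of these lists in the levels of the mitosis genes was not tested.

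Mitosis genes are known for a shared promoter layout, in which the factor NF-Y binds CCAAT boxes and the DREAM and MuvB complexes bind a cell cycle homology region, often TTTGAA, close to the start site. RefSeq start site windows of 250 bases before to 50 bases after the start (GRCm38.p6, first window listed per gene) were held for 41 of the 51 genes. Both strands were searched for the motif CCAAT, for TTTGAA and for its variant TTCGAA, and each match was counted whether or not it overlapped another. CCAAT was found in 30 of the 41 windows (73.2%), against 37.9% of 27025 genes with a window and 38.1% of the 9887 of these that the array measures. It stood at least 2 times in 20 of the 41 (48.8%), against 12.2% of all genes. TTTGAA was found in 26 of the 41 (63.4%, against 18.1%) and TTCGAA in 4 (9.76%, against 1.57%). A window with CCAAT together with TTTGAA or TTCGAA was found for 26 of the 41 genes (63.4%), against 7.70% of all genes and 5.96% of those on the array. These are matches of letters and not shown binding sites.

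The stretches from 200 bases before to 30 bases after the start site are printed for 6 genes, 5′ to 3′ on the gene's strand, with matches to the motifs in capitals (a match on the other strand appears as the reverse complement of the motif). Ccnb2, Cdk1 and Cdc20 are shown as the core of the mitotic engine and its shut-off, and Mki67, Ncapd2 and Cdc25b because they had the lowest adjusted p-values of the 49 genes once mutant replicate 1 was left out (given further on), a choice made after their values were seen.
Ccnb2, chr9:70421525-70421754, minus strand: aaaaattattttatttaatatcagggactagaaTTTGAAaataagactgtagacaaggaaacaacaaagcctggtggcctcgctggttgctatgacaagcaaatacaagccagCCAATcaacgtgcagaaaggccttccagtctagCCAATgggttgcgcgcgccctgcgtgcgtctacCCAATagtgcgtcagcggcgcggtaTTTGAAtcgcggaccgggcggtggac
Cdk1, chr10:69352883-69353112, minus strand: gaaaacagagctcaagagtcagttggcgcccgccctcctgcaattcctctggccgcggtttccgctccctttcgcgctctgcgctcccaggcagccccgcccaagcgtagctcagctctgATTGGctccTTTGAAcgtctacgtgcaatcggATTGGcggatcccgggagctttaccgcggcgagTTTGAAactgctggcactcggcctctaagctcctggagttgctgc
Cdc20, chr4:118437314-118437543, minus strand: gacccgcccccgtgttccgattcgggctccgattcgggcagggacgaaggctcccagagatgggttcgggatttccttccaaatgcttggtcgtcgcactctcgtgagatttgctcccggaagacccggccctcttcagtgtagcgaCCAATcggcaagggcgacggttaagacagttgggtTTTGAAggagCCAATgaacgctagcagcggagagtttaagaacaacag
Mki67, chr7:135716350-135716579, minus strand: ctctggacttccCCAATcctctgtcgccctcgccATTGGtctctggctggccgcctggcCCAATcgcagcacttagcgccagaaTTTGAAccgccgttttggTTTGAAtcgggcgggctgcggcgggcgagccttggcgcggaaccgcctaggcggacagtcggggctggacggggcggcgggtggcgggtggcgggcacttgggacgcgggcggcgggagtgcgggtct
Ncapd2, chr6:125191557-125191786, minus strand: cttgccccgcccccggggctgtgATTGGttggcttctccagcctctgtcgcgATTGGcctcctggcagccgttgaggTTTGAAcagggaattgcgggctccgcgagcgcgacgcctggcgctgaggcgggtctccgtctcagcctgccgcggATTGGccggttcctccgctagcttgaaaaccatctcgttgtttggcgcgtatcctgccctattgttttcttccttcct
Cdc25b, chr2:131186748-131186977, plus strand: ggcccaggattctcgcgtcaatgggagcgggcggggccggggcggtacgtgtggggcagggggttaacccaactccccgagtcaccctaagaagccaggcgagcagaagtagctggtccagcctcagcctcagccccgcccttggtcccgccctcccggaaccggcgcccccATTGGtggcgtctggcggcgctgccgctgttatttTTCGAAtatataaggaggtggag

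In Ccnb2 the CCAAT boxes began at -87, -54 and -21 from the start site and a TTTGAA at 5. Cdk1 had CCAAT at -80 and -48 and TTTGAA at -71 and -15 within the printed stretch, and Cdc20 had CCAAT at -53 and -8 around a TTTGAA at -18. Mki67 carried 3 CCAAT boxes between -188 and -141 followed by TTTGAA at -116 and -98. Cdc25b had the variant TTCGAA at 8 and a CCAAT box at -28. The 25 measured genes with both kinds of motif had a median deviation of -0.31 on mutant replicate 1, 0.14 on mutant replicate 2 and 0.05 on mutant replicate 3. The 14 measured genes with a window that lacked the combination had -0.20, 0.24 and 0.24. The median was thus lowest on mutant replicate 1 in both sets, and no test was made of the difference.

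Among the genes of the cyclin and Cdk1 engine, 8 of 9 were measured and 0 were called, against 0.331% of all genes. Cdc25b, a phosphatase that removes the inhibitory phosphates from Cdk1, had the largest difference of all 49 genes. It read 7.86, 7.84 and 7.68 on wild type replicates 1, 2 and 3 and 7.84, 8.84 and 8.53 on mutant replicates 1, 2 and 3. Mutant replicate 1 lay within the wild type range and the other mutant arrays lay far above it. The means were 7.79 ± 0.10 and 8.40 ± 0.51 (SD, n = 3 each), a difference of 0.61 ± 0.24 (SE from limma), which is 1.53-fold, with an adjusted p of 0.25. Its relative Cdc25c, which acts on the same phosphates, differed by -0.05 ± 0.16.

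Ccna2, cyclin A2, read 10.15, 10.15 and 10.02 in wild type and 9.95, 10.61 and 10.44 in mutant samples. The groups overlapped, with 1 mutant array below and the others above all wild type arrays. Ccnb2, a B cyclin, read 10.65, 10.68 and 10.50 in wild type and 10.30, 10.75 and 10.82 in mutant samples, again with mutant replicate 1 below and the others above all wild type arrays. Cdk1, the kinase that these cyclins activate, read 10.11, 10.08 and 9.98 in wild type and 9.68, 9.99 and 10.07 in mutant samples. Only mutant replicate 1 lay outside the wild type range, and the difference was -0.14 ± 0.12 (adjusted p = 0.62). Foxm1, the transcription factor that switches on many G2/M genes, differed by 0.01 ± 0.16 on its brightest probe set. On dimmer probe sets it differed by 0.30 ± 0.12, 0.25 ± 0.12 and 0.10 ± 0.11. For the differences of 0.30 and 0.25 every mutant array lay above every wild type array. For 0.10 the groups overlapped, and that probe set averaged 2.24 in wild type, below the array medians. Cks1b and Cks2, small proteins that bind Cdk1, differed by 0.17 ± 0.10 and -0.09 ± 0.09, and Cks1b was lower on a dimmer probe set, by -0.24 ± 0.09. On the brightest probe sets, Cks2 was the member of this group whose groups did not overlap. It read 11.89 to 11.94 in wild type and 11.73 to 11.87 in mutant samples.

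All 7 genes of mitotic kinases and spindle poles were measured and 0 were called, against 0.331% of all genes. Mutant replicate 1 was the lowest of the 6 arrays for each of the 7, against 28.3% of all genes. Plk1, which drives centrosome maturation and mitotic entry, read 8.67, 8.62 and 8.35 in wild type and 8.08, 8.27 and 8.51 in mutant samples. Its groups overlapped through mutant replicate 3, and the difference was -0.26 ± 0.15 (adjusted p = 0.41). Aurka, the spindle pole kinase, and Tpx2, its activator, differed by -0.16 ± 0.13 and -0.14 ± 0.11. Plk4, the kinase that starts centriole copying, read 9.34, 9.39 and 9.45 in wild type and 8.92, 9.64 and 9.65 in mutant samples, which left a mean difference of 0.01 ± 0.20. Here the mutant arrays lay on both sides of the wild type range, as they did for 26 of the 49 genes, against 33.6% of all genes. Nek2, a centrosome kinase, Tacc3, a spindle microtubule protein, and the kinase gene Melk differed by 0.22 ± 0.13, 0.09 ± 0.15 and 0.15 ± 0.12.

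In the group of checkpoint and anaphase genes 7 of 8 were measured, 0 were called, against 0.331% of all genes, and the arrays lay closest together. The median deviation was -0.13 on mutant replicate 1, -0.0068 on mutant replicate 2 and -0.03 on mutant replicate 3. Bub1b, which encodes the checkpoint protein BubR1, read 8.83, 8.89 and 8.76 in wild type and 8.80, 8.81 and 8.87 in mutant samples. Every mutant value lay inside the wild type range, and the difference of 0.0008 had a 95% confidence interval of -0.21 to 0.21. Bub3 and Mad2l1, which form the checkpoint complex with it, differed by -0.06 ± 0.09 and -0.09 ± 0.10. Bub1, the kinase that places the checkpoint proteins on kinetochores, differed by -0.22 ± 0.13, with 9.07 on mutant replicate 1 against 9.49 to 9.59 in wild type. Ttk, the kinase that starts checkpoint signalling, differed by 0.17 ± 0.12. Cdc20, the activator of the anaphase-promoting complex, read 11.12 to 11.17 in wild type and 11.01 to 11.11 in mutant samples, without overlap and with an adjusted p of 0.63. Pttg1, the securin that guards the cohesin-cutting enzyme, differed by 0.06 ± 0.11.

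Kinetochore and chromosomal passenger genes were all measured, 9 of 9, and 0 were called, against 0.331% of all genes. Nuf2, of the microtubule-binding Ndc80 complex, varied most between the mutant arrays. It read 8.32, 8.31 and 8.19 in wild type and 7.43, 8.49 and 7.94 in mutant samples, so mutant replicates 1 and 3 were below and mutant replicate 2 above the wild type range. Spc25, of the same complex, read 9.26, 9.33 and 9.28 in wild type and 8.77, 9.09 and 9.13 in mutant samples. Its groups did not overlap, and the difference was -0.29 ± 0.12 (unadjusted p = 0.042, adjusted p = 0.27). Ndc80 itself, the complex's namesake, read 6.977 to 7.003 in wild type and 6.79, 7.43 and 7.22 in mutant samples (difference 0.16 ± 0.16). On mutant replicate 3 the probe sets that stand for these genes deviated by -0.34 for Nuf2, -0.16 for Spc25 and 0.23 for Ndc80. A dimmer probe set of Spc25 read 5.33 there, against 5.015 to 5.32 in wild type, and its groups overlapped. Whether the 3 subunits differ from each other was not tested.

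Birc5, the passenger protein survivin, read 10.97, 10.999 and 10.92 in wild type and 10.56, 10.89 and 10.83 in mutant samples. The groups did not overlap, yet the difference of -0.21 ± 0.11 did not pass the test (adjusted p = 0.41). Its partners Aurkb, the kinase of the complex, and Incenp, its scaffold, differed by 0.09 ± 0.15 and 0.13 ± 0.11. The centromeric histone gene Cenpa, the motor gene Cenpe and the kinetochore gene Cenpf differed by 0.06 ± 0.14, 0.07 ± 0.14 and 0.18 ± 0.19.

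Motor and spindle genes numbered 11, all measured, with 0 called, against 0.331% of all genes. Kif2c is a kinesin that takes microtubule ends apart. On the brightest probe sets it was the single gene of the 49 with every mutant array above every wild type array. Of all genes 12.0% were separated that way. It read 8.28, 8.25 and 8.24 in wild type and 8.36, 8.59 and 8.63 in mutant samples, a difference of 0.27 ± 0.10 (unadjusted p = 0.033, adjusted p = 0.25). On a dimmer probe set of Kif2c every mutant array lay below every wild type array (-0.33 ± 0.10, adjusted p = 0.139). Kif11, the kinesin that pushes the spindle poles apart, was separated with lower mutant values. It read 8.54, 8.58 and 8.53 in wild type and 8.09, 8.42 and 8.48 in mutant samples (-0.22 ± 0.12, adjusted p = 0.41). On the brightest probe sets, lower mutant values without overlap were found for 7 of the 49 genes (Cks2, Cdc20, Spc25, Birc5, Kif11, Smc2 and Smc4), against 12.7% of all genes. Cks2, Cdc20, Spc25 and Smc4 each overlapped on a dimmer probe set. Nusap1, which bundles spindle microtubules, read 10.02 to 10.05 in wild type and 9.36, 10.08 and 9.88 in mutant samples. Prc1, which bundles microtubules between the separating chromosomes, read 8.89 to 9.03 in wild type and 8.36, 9.12 and 9.02 in mutant samples. On mutant replicate 3 Nusap1 lay below the wild type range and Prc1 within it. Kif4 and Kif22, motors that bind chromosomes, and Kif20a, a motor of the midzone, differed by 0.23 ± 0.13, 0.07 ± 0.13 and -0.05 ± 0.16. The spindle genes Hmmr, Ckap2 and Dlgap5 and the microtubule-destabilising gene Stmn1 differed by -0.11 to 0.04.

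Condensin and chromosome structure genes were all measured, 7 of 7, and 0 were called, against 0.331% of all genes. Smc2 and Smc4 form its ATPase core, and Ncapd2, Ncapg and Ncaph are the other subunits of condensin I. Smc2 read 10.77, 10.79 and 10.77 in wild type and 10.24, 10.63 and 10.65 in mutant samples, and Smc4 read 11.07, 11.01 and 11.05 against 10.41, 10.99 and 10.91. On these probe sets, which stand for the genes, both were lower on every mutant array, by -0.27 ± 0.13 and -0.27 ± 0.16 on the means (adjusted p = 0.34 and 0.43). Dimmer probe sets of Smc4 differed by -0.32 ± 0.13, without overlap, and by 0.05 ± 0.19, with overlap. Ncapd2 read 9.31, 9.41 and 9.19 in wild type and 9.34, 10.14 and 10.11 in mutant samples. As with Cdc25b, mutant replicate 1 lay within the wild type range and the other mutant arrays above it, and the difference was 0.56 ± 0.21, or 1.48-fold (adjusted p = 0.25). Ncaph differed by 0.28 ± 0.14 and Ncapg by 0.05 ± 0.17. Whether the subunits differ from each other was not tested.

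Mki67, the proliferation antigen Ki-67 that coats mitotic chromosomes, read 12.16, 12.14 and 12.14 in wild type. The mutant arrays read 11.75, 12.67 and 12.50, which places the means at 12.15 ± 0.011 and 12.31 ± 0.49 (SD, n = 3 each) with a difference of 0.16 ± 0.23 (adjusted p = 0.76). Top2a, the topoisomerase that untangles sister chromosomes, read 11.15, 11.14 and 11.003 in wild type and 10.73, 11.30 and 11.15 in mutant samples, again lowest on mutant replicate 1.

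**Figure D3:**
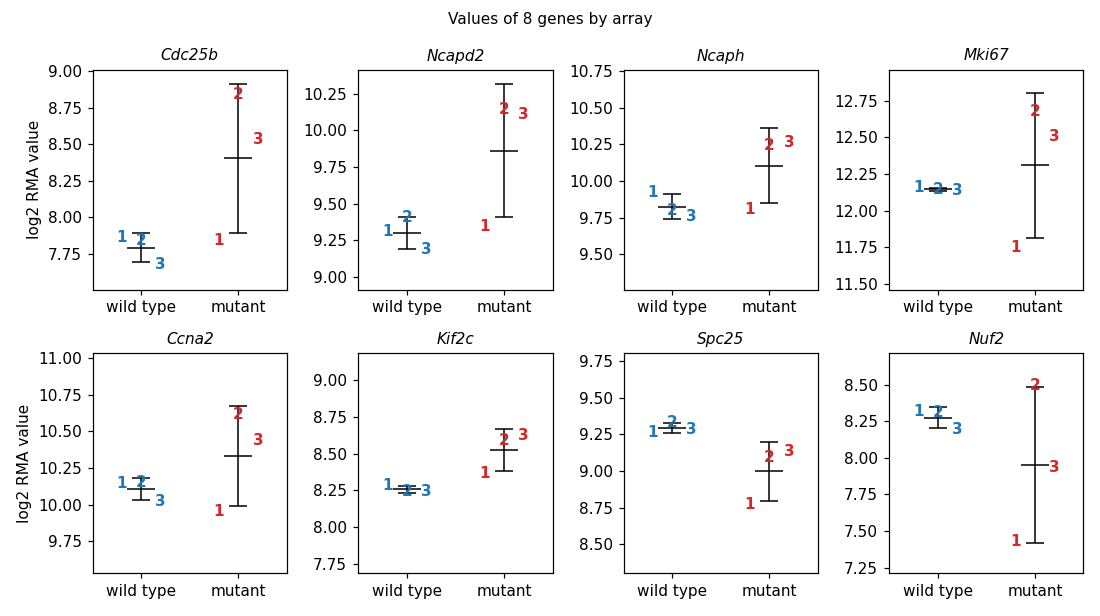
Log2 RMA values (vertical axes, all spanning 1.5 log2 units) of 8 genes in wild type (blue) and mutant (red) samples; each numeral is the array of that replicate, and the black bars give the mean and SD of 3 arrays. Mutant replicate 1 lies lowest of the mutant arrays in all 8 panels, while the wild type arrays of Mki67 lie within 0.021 of each other.

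Leaving out mutant replicate 1 changed the calls. Mutant replicates 2 and 3 were set against the 3 wild type arrays, each gene read on its brightest probe set. Of the 49 genes 6 were called higher and 0 lower by limma. Of all genes 9.54% were called, 5.84% as higher and 3.70% as lower. The 6 were Cdc25b (0.89, adjusted p = 0.0092), Ncapd2 (0.82, adjusted p = 0.0070), Mki67 (0.44, adjusted p = 0.033), Ncaph (0.43, adjusted p = 0.037), Ccna2 (0.42, adjusted p = 0.048) and Kif2c (0.35, adjusted p = 0.049). Nek2 (0.36) and Cenpf (0.41) had an adjusted p of 0.055 and 0.060. The median of the 49 genes was 0.13 in that comparison, against -0.003 over all genes. Mutant replicate 1 was the lowest array for 36 of the 49, so leaving it out raised the mutant means of those genes. The higher direction therefore follows in part from which array was left out. Smc2, Smc4, Spc25 and Birc5 stayed below 0 (-0.14, -0.10, -0.18 and -0.10) and were not called. In the fit over probe sets of the same arrays, the dimmer one of Ccna2 gave 0.08 (adjusted p = 0.70). The dimmer ones of Kif2c gave -0.27, -0.11 and 0.67, the last called (adjusted p = 0.020) on a probe set that averaged 4.82 in wild type, below the array medians. Also chosen after their values were seen, dimmer ones of Foxm1 (0.37) and Tacc3 (0.74 and 0.68) were called higher. A dimmer one of Kif11 was called lower (-0.44, adjusted p = 0.039). With each of the other 5 arrays left out in turn, 0 of the 49 genes were called. Weighting arrays by their fit in limma, with all 6 arrays kept, called Cdc25b and Ncapd2, at 0.82 and 0.68 (adjusted p = 0.0135 and 0.0184), where 10.4% of all genes were called and 6.14% were called higher.

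**Figure D4:**
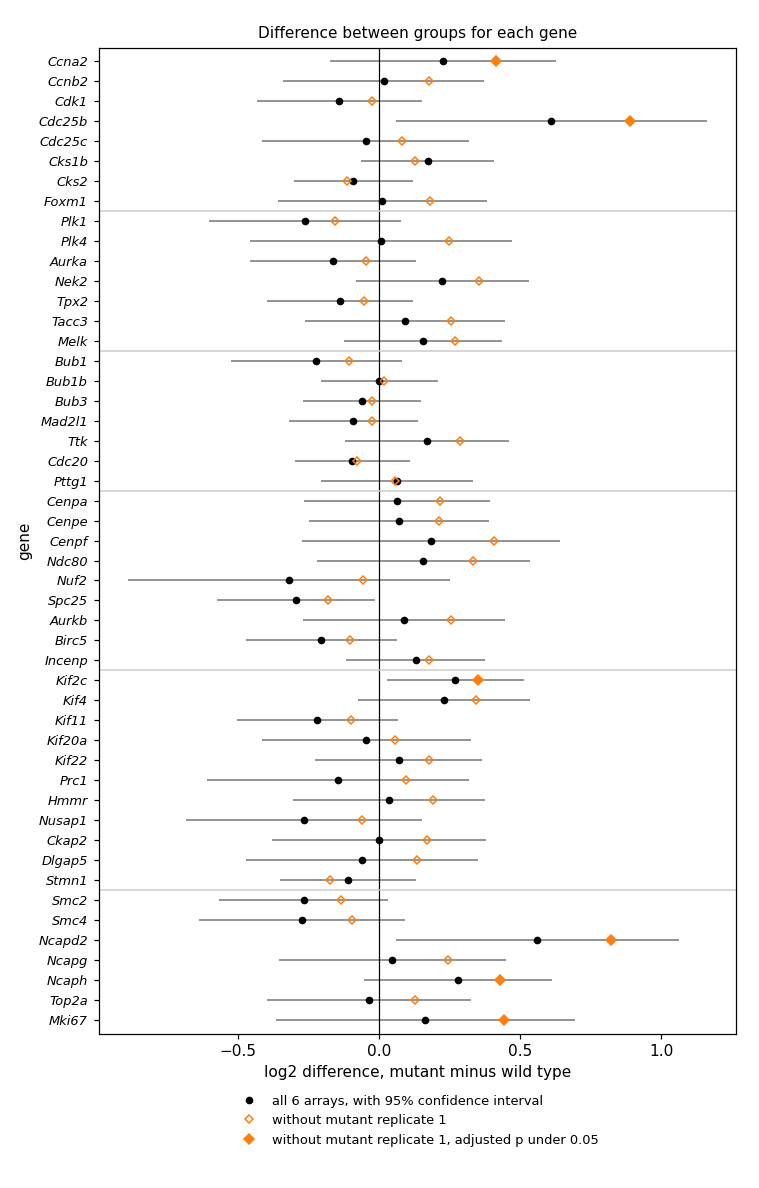
Log2 difference, mutant minus wild type (horizontal axis), of each of the 49 genes (rows, grouped by role with grey lines): black points with bars give the value and 95% confidence interval from all 6 arrays, and orange diamonds the value without mutant replicate 1, filled where the adjusted p was under 0.05. The black bars cross 0 for all genes but Cdc25b, Ncapd2, Kif2c and Spc25, none of which passed the adjusted threshold, and 6 diamonds are filled.

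Several of the genes were read by more than 1 probe set, and the probe sets did not always move together. Of the 26 genes with several probe sets, 14 had at least 1 with a higher and 1 with a lower mutant mean. Kif2c was the widest example: its 4 probe sets differed by -0.33, -0.21, 0.27 and 0.42. Ccna2 differed by 0.22 on the brighter and -0.14 on the dimmer probe set, and Nusap1 by -0.27 and 0.31. The probe sets behind 0.42 for Kif2c and 0.31 for Nusap1 averaged 4.82 and 4.46 in wild type, below the array medians. All 3 probe sets of Kif11 were lower in the mutant, by -0.22, -0.29 and -0.47, the last with the lowest adjusted p of the 91 probe sets (0.061). All 3 of Tacc3 were higher, by 0.09, 0.33 and 0.34. The low reading of mutant replicate 1 held across probe sets, since it was the lowest of the 6 arrays for 64 of the 91, against 28.3% of all probe sets.

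**Figure D5:**
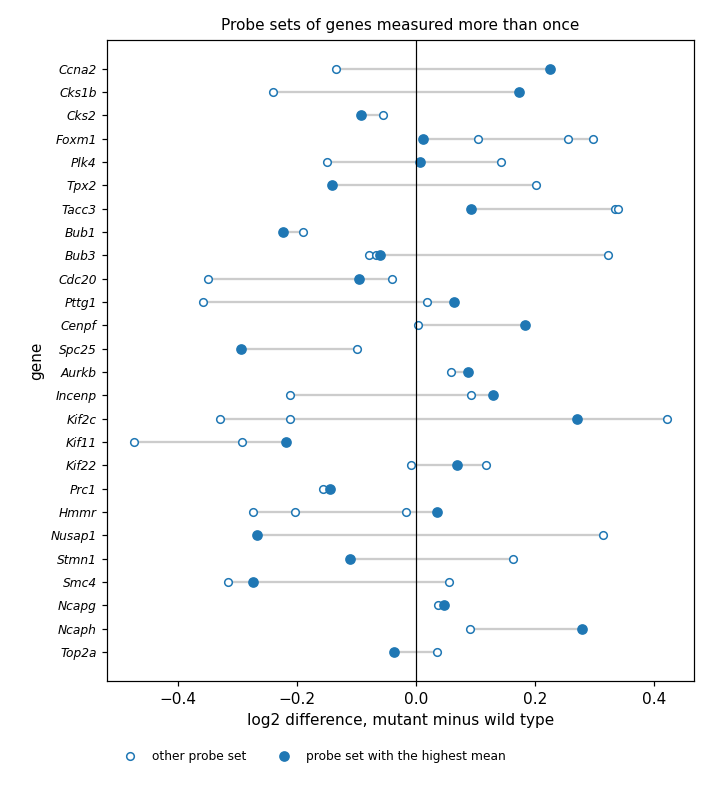
Log2 difference, mutant minus wild type (horizontal axis), of every probe set of the 26 genes (rows) measured by more than 1; filled circles mark the probe set with the highest mean, which stands for the gene, and open circles the others. In 14 rows the circles lie on both sides of 0, as for Kif2c from -0.33 to 0.42, the latter on a probe set below the array medians in wild type.

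Other genes of the mitotic machinery were read the same way. Of 119 other genes listed for the anaphase-promoting complex, kinetochores, cohesin, condensin II, spindle motors and mitotic entry, 85 were measured, 0 were called by limma and 17 had an unadjusted p under 0.05, where 17.4% of all genes did. Their median difference was 0.06, and 43 of the 85 (50.6%) were lowest on mutant replicate 1, against 28.3% of all genes. Pkmyt1, a kinase that holds Cdk1 inactive, came closest to a call: it read 8.05, 7.99 and 7.98 in wild type and 8.33, 8.63 and 8.62 in mutant samples (0.52 ± 0.11, adjusted p = 0.090). Every mutant array lay above every wild type array. Mastl, the Greatwall kinase that protects mitotic phosphorylation, differed by 0.35 ± 0.11, Numa1, which anchors spindle poles, by 0.42 ± 0.10, and Racgap1, of the midzone complex, by 0.37 ± 0.13. Of the anaphase-promoting complex list, the subunit gene Cdc16 differed by 0.38 ± 0.09 (adjusted p = 0.098) and Ube2c, the complex's ubiquitin-conjugating enzyme, by -0.45 ± 0.18, with 10.76 to 10.86 in wild type and 10.01, 10.39 and 10.73 in mutant samples. The centromere genes Cenpx and Cenpo differed by -0.43 ± 0.11 and -0.38 ± 0.11, the cohesin subunit gene Stag1 by -0.30 ± 0.09 and Cdca5, the cohesin protector sororin, by 0.26 ± 0.10. In the fit over probe sets, dimmer ones of the kinesin genes Kif23 and Kif2a, chosen after their values were seen, were called lower. They differed by -0.67 ± 0.11 and -0.65 ± 0.12 (adjusted p = 0.029 and 0.047), where 1.39% of all probe sets were called lower. The one of Kif23 averaged 3.92 in wild type, below the array medians. Without mutant replicate 1, 14 of the 85 genes were called higher, where 5.84% of all genes were, and 1, Cenpx, was called lower, where 3.70% were.

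Genes of the preceding phase were set beside them. Of 35 measured G1/S and DNA replication genes 0 were called by limma and 7 had an unadjusted p under 0.05, a share near the 17.4% of all genes. The median difference was 0.0034, with -0.24, 0.08 and 0.13 on mutant replicates 1, 2 and 3, and mutant replicate 1 was the lowest array for 22 of the 35 (62.9%), against 28.3% of all genes. The lowest p-values were those of Rfc4, a subunit of the clamp loader, at -0.49 ± 0.13 (adjusted p = 0.12), and Ung, a uracil glycosylase, at 0.34 ± 0.09 (adjusted p = 0.13). The low reading of mutant replicate 1 was therefore also present among replication genes, and whether the lists differ in it was not tested.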

How the data were processed

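RNA of 6 sorted erythroblast samples was measured on 1 array each. The deposited values are log2 values per probe set, which the authors made with GCOS and RMA in Affymetrix Expression Console, per the submitters' processing notes. RMA corrects background, quantile normalises and summarises probes. No version of either tool was found in the sources used here. Of 22690 probe sets in the table, 64 controls were left out of the tests. The 2016 platform annotation gave 1 symbol for 20380 probe sets, several for 691 and none for 1555, and Entrez identifiers of 20351 matched a GRCm38.p6 gene table, which changed 0 symbols. The array names no genome build, so only the RefSeq promoter windows carry coordinates.

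Each of 12393 genes was represented by its brightest probe set, judged on the mean of all 6 arrays. The groups were set against each other in a linear model without covariates (limma 3.58.1, R 4.3.3, moderated by eBayes, two-sided), with Benjamini-Hochberg adjustment over all genes and a call under 0.05. The fit was repeated over all probe sets and tested on simulated data. Every measured member is named. Of the other mitosis lists and the G1/S list the genes with the lowest p-values are named. The members and lists were chosen with earlier results of these data known. Alternatives covered the variance prior, array weights, renormalisation, dim probe sets, probe set choice, the threshold, a replicate block and leaving out each array. Tables and plots used pandas 2.3.3 and matplotlib 3.10.9 under Python 3.11.15.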

Additional observations from a re-analysis of the deposited data

How the results depend on the processing

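With 3 arrays per group, precision is limited by that number. The count of called members was 0 under every setting except array weights, which called 2 genes higher (Cdc25b and Ncapd2), and the fit without mutant replicate 1. Leaving out 1 array at a time gave 0 to 6 called members, 0 to 6 called higher, 0 to 15 called among the other mitosis genes and 0 to 11 among the 91 member probe sets, the upper value each time without mutant replicate 1, and the cause was not tested. With array weights 13 of 85 other mitosis genes were called, where 10.4% of all genes were, and 4 of 91 member probe sets, where 11.8% of all probe sets were. At an adjusted p under 0.10, 2 other mitosis genes and 1 member probe set were called, and 1 member probe set was called with dim probe sets left out and 1 with quantile normalisation repeated without controls. The shares of all genes and probe sets called under these 3 settings are not given here, so the counts show nothing particular to these genes. All 49 members passed the filter on dim probe sets. With the replicate block 0 members, 0 other mitosis genes and 0 member probe sets were called, and the block called 7 of all genes, against 41 without it. Same-numbered wild type and mutant samples correlated at 0.061, 0.022 and 0.082 in their deviations from the group means, so the number was not taken to pair samples. In alternatives chosen after seeing the data, mutant replicate 1 was the lowest array for 38 members after renormalisation, 38 on the mean of all probe sets and 42 with array medians set equal. The share of all genes in these alternatives is not given here, so the counts show nothing particular to the members.

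Of 62 named genes 24 changed sign under some setting, with no call on either side unless said, and the cause was not tested. With array weights Cdc25c turned to 0.0063, Bub1b to -0.033, Prc1 to 0.0038, Ckap2 to 0.15, Dlgap5 to 0.0038 and Top2a to 0.071. With quantile normalisation repeated without controls Cks2 turned to 0.0067, Foxm1 to -0.034, Bub1b to -0.0066, Stmn1 to 0.0044, Top2a to 0.053 and Rps19 to 0.0997. On the mean of all probe sets Cks1b turned to -0.034, Plk4 to -0.0003, Tpx2 to 0.030, Bub3 to 0.029, Pttg1 to -0.092, Hmmr to -0.11, Nusap1 to 0.023 and Stmn1 to 0.025. Leaving out 1 array at a time, the ranges that crossed 0 were -0.082 to 0.18 for Ccnb2, -0.20 to 0.080 for Cdc25c, -0.12 to 0.18 for Foxm1, -0.12 to 0.25 for Plk4, -0.031 to 0.032 for Bub1b, -0.024 to 0.16 for Pttg1, -0.014 to 0.21 for Cenpa, -0.030 to 0.21 for Cenpe, -0.013 to 0.25 for Aurkb, -0.22 to 0.056 for Kif20a, -0.29 to 0.093 for Prc1, -0.081 to 0.19 for Hmmr, -0.15 to 0.17 for Ckap2, -0.20 to 0.13 for Dlgap5, -0.065 to 0.24 for Ncapg, -0.16 to 0.13 for Top2a and -0.019 to 0.44 for Mki67, the last called without mutant replicate 1.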
